A study of Homo sapiens with 414 samples.

Results

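The glucocorticoid receptor gene and 7 genes known as its targets were followed through a compound screen on human neural progenitor cultures. The 8 genes, NR3C1, FKBP5, TSC22D3, PER1, ZBTB16, KLF9, SGK1 and DUSP1, were picked by name from the 19084 gene symbols of the expression table. All 8 passed the filter of at least 1 TPM in at least 5 libraries, as did 16318 genes in all. H1-NPC cultures, neural progenitors made from H1 human embryonic stem cells, received 1 compound each when they were seeded and were lysed on the plate after 1, 2, 3, 4, 6, 8, 10, 15, 21, 27 or 39 days. The group of main interest was dexamethasone at 100 µM, labelled toxic in the screen, with 1 library on each of the 11 days. The other 28 toxic compounds gave 255 libraries, and the 16 non-toxic compounds, DMSO at 0.1% among them, gave 148. Each compound was given at 1 dose and had at most 1 library per day, so its replicates were wells of different days and p-values measure the spread between such libraries, which may be technical. All groups shared the cell line and the medium, DF3S with N2B27. The B27 supplement as published contains corticosterone, a natural ligand of the receptor, and whether the batch used here did is not stated in the sources used here.

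NR3C1 encodes the glucocorticoid receptor, a transcription factor that HSP90 chaperones hold ready in the cytoplasm. A ligand such as cortisol or the synthetic steroid dexamethasone sends it to the nucleus, where it binds inverted repeats of a short hexamer and switches genes on, or holds back inflammatory genes. FKBP5 encodes an immunophilin that lowers the receptor's affinity for hormone, and TSC22D3 encodes GILZ, a leucine zipper protein that restrains inflammatory transcription factors. Both serve as standard readouts of receptor activity in many cell types. PER1 is a core clock gene, ZBTB16 encodes the zinc finger repressor PLZF, and KLF9 is a Krüppel-like transcription factor. SGK1 is a kinase that regulates ion channels and transporters, and DUSP1 is a phosphatase that switches off MAP kinases. SGK1 and DUSP1 also answer to cell stress without any steroid.

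Promoters are shown for FKBP5 and TSC22D3, the genes called with dexamethasone, and for SGK1 and DUSP1, which both rose under arsenic, cadmium and okadaic acid. RefSeq promoter windows on build GRCh38.p14, 250 bases before to 50 bases after each annotated start, were found for 7 of the 8 genes, 19 windows in all. The receptor's inverted repeat was written as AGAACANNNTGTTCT and read on both strands at once, since it is its own reverse complement. None of the 19 windows held it with at most 2 mismatches in the 12 fixed letters, as 1.41% of the 35116 windows in the table did. The hexamer TGTTCT, which is part of that repeat, was in 2 of the 19 windows on either strand and in 14.8% of all windows. TGACGTCA, the cyclic AMP response element, was in 1 window, that of DUSP1, and in 1.85% of all. CACGTG, the E-box of clock factors, was in 3 windows, those of DUSP1, PER1 and the first one of FKBP5 below, and in 7.26% of all; it overlapped none of the other matches. Capitals mark these matches, and each window is on the minus strand of its chromosome. SGK1 has 3 windows and TSC22D3 has 4, of which 1 each is printed, picked after the matches were known. The TPM are per gene, so which start was in use cannot be read from them.
FKBP5, chr6:35688866-35689165: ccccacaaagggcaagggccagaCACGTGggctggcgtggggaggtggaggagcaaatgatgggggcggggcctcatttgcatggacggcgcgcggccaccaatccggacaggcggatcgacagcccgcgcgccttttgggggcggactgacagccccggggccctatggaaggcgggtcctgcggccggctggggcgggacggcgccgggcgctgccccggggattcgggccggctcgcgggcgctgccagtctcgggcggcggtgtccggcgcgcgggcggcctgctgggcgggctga
FKBP5, chr6:35728534-35728833: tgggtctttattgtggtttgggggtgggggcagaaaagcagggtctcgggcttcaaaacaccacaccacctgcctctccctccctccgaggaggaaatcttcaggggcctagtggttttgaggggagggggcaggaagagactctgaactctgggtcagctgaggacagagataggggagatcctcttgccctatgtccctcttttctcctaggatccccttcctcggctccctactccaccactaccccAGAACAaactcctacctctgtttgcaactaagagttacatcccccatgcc
TSC22D3, chrX:107717013-107717312: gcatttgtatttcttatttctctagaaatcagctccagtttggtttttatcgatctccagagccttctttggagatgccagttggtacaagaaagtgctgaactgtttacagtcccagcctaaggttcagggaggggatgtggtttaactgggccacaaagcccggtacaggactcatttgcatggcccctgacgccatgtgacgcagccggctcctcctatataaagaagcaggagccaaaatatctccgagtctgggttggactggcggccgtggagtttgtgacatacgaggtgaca
SGK1, chr6:134177812-134178111: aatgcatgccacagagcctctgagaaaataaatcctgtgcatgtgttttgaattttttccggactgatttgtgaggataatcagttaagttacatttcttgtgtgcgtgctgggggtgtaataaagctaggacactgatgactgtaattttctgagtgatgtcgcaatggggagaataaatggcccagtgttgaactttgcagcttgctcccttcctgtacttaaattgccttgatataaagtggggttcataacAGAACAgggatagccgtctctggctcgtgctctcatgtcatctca
DUSP1, chr5:172771146-172771445: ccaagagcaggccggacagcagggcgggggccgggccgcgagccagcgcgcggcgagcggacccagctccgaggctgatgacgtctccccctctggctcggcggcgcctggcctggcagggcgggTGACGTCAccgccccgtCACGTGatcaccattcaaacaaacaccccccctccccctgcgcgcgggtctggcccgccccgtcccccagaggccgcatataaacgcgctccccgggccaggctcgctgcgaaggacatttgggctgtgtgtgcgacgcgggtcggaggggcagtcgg

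In the second FKBP5 window the hexamer began at base 1 after the start, and in the printed SGK1 window at base 6. The other SGK1 windows held no match. In the DUSP1 window TGACGTCA began 125 bases before the start and CACGTG 108 bases before it. None of the TSC22D3 windows held any of the 4 motifs. These are matches of letters in a short window, and enhancers further away were not searched.

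Values are TPM, each gene's length-scaled share of its library. How many reads a value rests on is unknown, and a gene listed at 0 may still be expressed. In bulk cultures fewer cells of a type and less RNA per cell cannot be told apart. Markers of the labelled progenitors were present, with a median over all libraries of 224 TPM for SOX2, 913 TPM for NES and 8.565 TPM for PAX6. The neuron marker TUBB3 had a median of 2657 TPM. GFAP reached a median of 3657 TPM in the non-toxic libraries of day 39. Of 6 microglial genes, AIF1, CX3CR1, P2RY12 and PTPRC had a median of 0, CSF1R one of 0.08 TPM and TMEM119 one of 0.78 TPM. TMEM119, which the median non-toxic library of day 39 held at 10.1 TPM, was the only 1 of the 6 that passed the filter and was not called with dexamethasone. A few libraries stood apart. The non-toxic ibuprofen library of day 8 had the lowest non-toxic level that day of NR3C1, FKBP5, PER1, ZBTB16, SGK1 and DUSP1 and the highest of TSC22D3, the monosodium glutamate library of day 1 and the only library of Maneb had low levels of most of the 8 genes, and vincristine on day 4 had levels unlike its other days. Dexamethasone's own libraries of days 15 and 21 had a median over all genes 0.22 and 0.20 log2 units under the non-toxic mean. In them the deviation from that mean also fell with transcript length, by slopes of -0.155 and -0.118 log2 units per doubling, against -0.0672 to 0.0754 in the non-toxic libraries other than ibuprofen on day 8, at -0.445. The part of this in the levels of SGK1, ZBTB16, NR3C1 and PER1 on those days was not tested.

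Without dexamethasone or another toxic compound, the 8 genes followed very different courses over the 39 days. In the non-toxic libraries FKBP5 lost most of its level, the receptor gene dipped and then climbed, and KLF9 and SGK1 rose late. Between day 1 and day 39 6 of the 8 genes rose and 2 fell, all 8 passing the test, in a comparison where 83.6% of the genes tested were called. Changes are log2 differences of TPM plus 1, with their standard error, fitted with limma across all genes and called at a Benjamini-Hochberg adjusted p under 0.05.

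NR3C1 averaged 3.92 ± 0.44 TPM on day 1 (SD, n = 16), 1.72 ± 0.61 TPM on day 8 (n = 10) and 16.6 ± 1.7 TPM on day 39 (n = 14). It fell by 0.56 ± 0.07 between days 1 and 4, a step in which 55.8% of genes were called. Its next step, day 10 minus day 4, was -0.07 ± 0.07 and not called, where 68.7% of genes were. It then rose by 1.11 ± 0.08 between days 10 and 21 (62.1% of genes called) and by 1.37 ± 0.08 between days 21 and 39 (70.7% called). Every non-toxic library of day 39, at 13.7 to 19.7 TPM, lay above every one of day 10, at 1.36 to 2.97 TPM.

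FKBP5 fell over each of these steps. It averaged 68.4 ± 3.0 TPM on day 1, 27.1 ± 1.8 TPM on day 4, 6.39 ± 1.00 TPM on day 10, 5.18 ± 1.22 TPM on day 21 and 3.54 ± 0.92 TPM on day 39 (n = 16, 16, 15, 11 and 14). All 4 successive steps were called, with the largest fall, 1.94 ± 0.08, between days 4 and 10. The level of day 1 was 19.3 times that of day 39. The DMSO libraries alone gave 69.2 TPM on day 1 and 2.63 TPM on day 39. So the gene with the highest level of the 8 on day 1 had the lowest mean on day 39, while the receptor's own mRNA stood 4.24 times higher.

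TSC22D3, the other standard readout, was higher on later days. It averaged 25.2 ± 1.9 TPM on day 1, 78.5 ± 4.9 TPM on day 10 and 83.8 ± 3.8 TPM on day 39. It rose by 0.60 ± 0.04 between days 1 and 4 and by 1.00 ± 0.04 between days 4 and 10. Its later steps were small, and the rise of 0.14 ± 0.04 between days 10 and 21 became -0.04 (adjusted p = 0.64) once each library was centred on its median gene, a step in which the median of all genes tested moved by 0.16.

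KLF9 averaged 0.31 ± 0.13 TPM on day 1, near the bottom of what the table lists, and 3.68 ± 0.50 TPM on day 39, a change of 1.83 ± 0.06. SGK1 averaged 1.31 ± 0.32 TPM on day 1 and 12.9 ± 2.0 TPM on day 39, with 1.72 ± 0.10 of its rise between days 10 and 21. Neither gene's day 39 range overlapped its range on days 1 to 10. ZBTB16 was highest on day 6, at 12.4 ± 2.1 TPM (n = 15), and 4.16 ± 0.72 TPM on day 39, with its called fall of 1.23 ± 0.11 between days 4 and 10. DUSP1 averaged 20.5 ± 2.4 TPM on day 1, 48.8 ± 3.5 TPM on day 10 (n = 15) and 31.1 ± 3.0 TPM on day 39, so it rose and then fell. PER1 had the narrowest span of day means, 1.84 times from lowest to highest, with 18.1 ± 1.6 TPM on day 1 and 33.1 ± 3.0 TPM on day 39.

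By TPM, which is per length, the order of the 8 genes on day 1 was FKBP5, TSC22D3, DUSP1, PER1, ZBTB16, NR3C1, SGK1 and KLF9. Between these neighbours the ranges of TSC22D3 and DUSP1, and of DUSP1 and PER1, overlapped. On day 39 it was TSC22D3, PER1, DUSP1, NR3C1, SGK1, ZBTB16, KLF9 and FKBP5. There PER1 and DUSP1 overlapped, NR3C1 and SGK1 overlapped, and ZBTB16, KLF9 and FKBP5 could not be set apart.

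**Figure D1:**
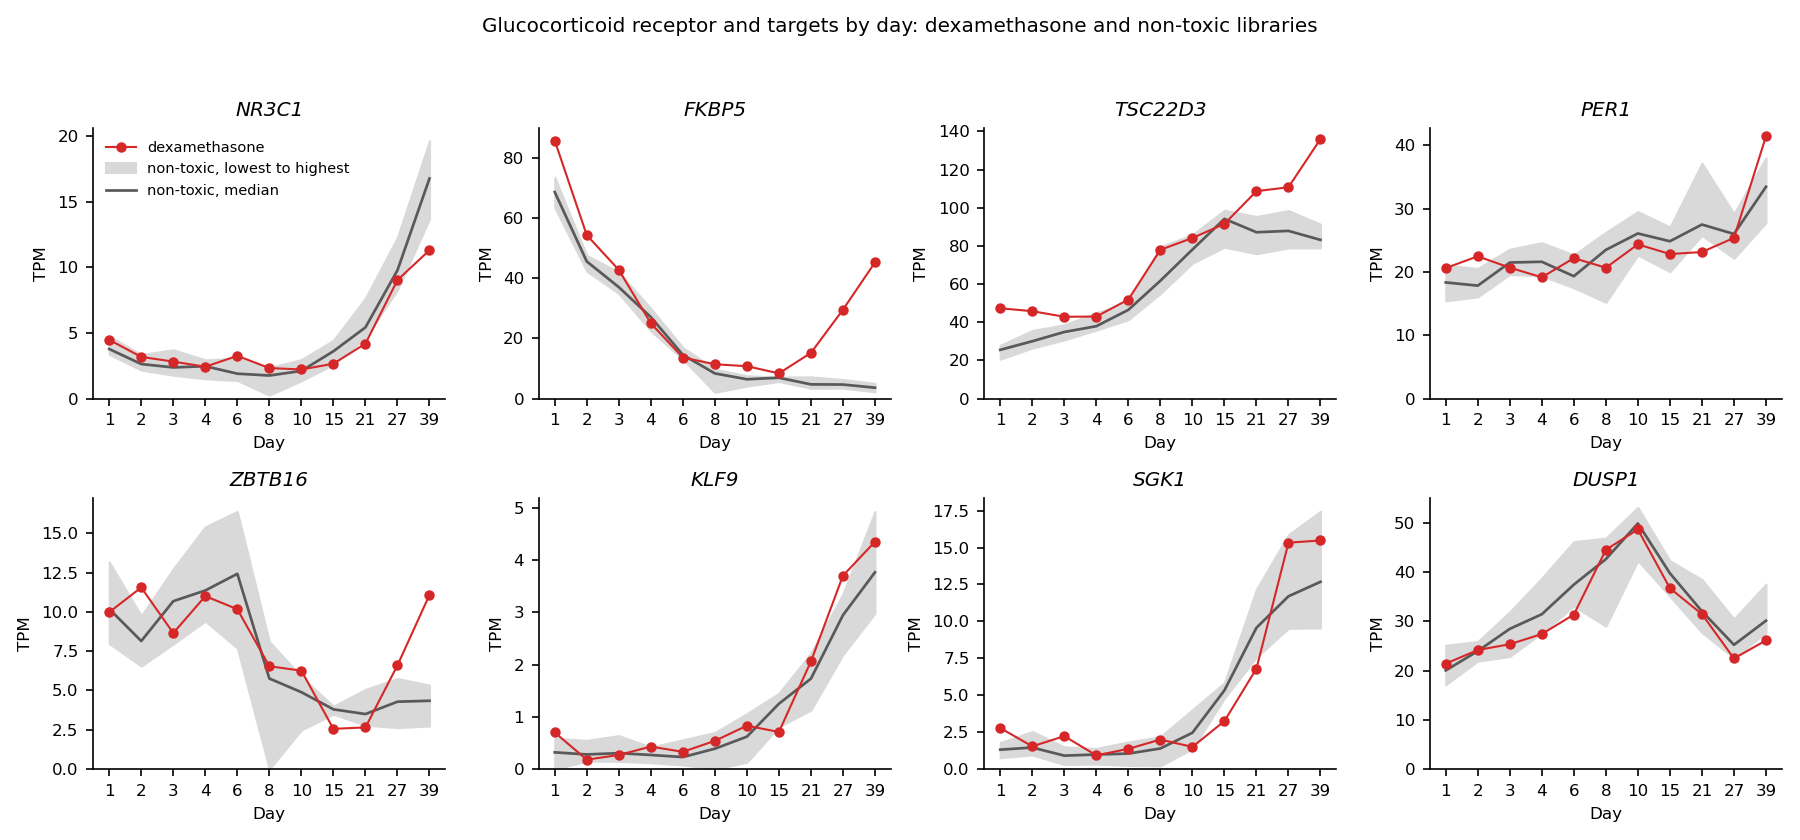
TPM of the 8 genes by day (horizontal axis, days not to scale). Red points are the dexamethasone library of each day, the grey band spans the lowest to the highest non-toxic library and the dark line is their median. FKBP5 lies above the band on every day but 4 and 6 and climbs after day 15, to 45.2 TPM on day 39. TSC22D3 lies above it on days 1, 2, 3, 6, 21, 27 and 39.

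FKBP5 and TSC22D3 rose with dexamethasone, and the other 6 genes had no call over all days. Across the 11 days, 13.5% of the 16318 genes tested were called, 782 higher and 1417 lower, and 2 of the 8 genes were among the higher ones. FKBP5 rose by 0.84 ± 0.12 (adjusted p = 5.63e-09) and TSC22D3 by 0.35 ± 0.04 (adjusted p = 1.22e-12). FKBP5 was above every non-toxic library of the same day on 9 of 11 days, as 1.1% of all genes were on at least as many. TSC22D3 was above them all on 7 days, as 2.23% of genes were, and above their mean on 11 of 11 days.

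The 2 genes kept different time courses under the drug. FKBP5 stood at 85.6 TPM on day 1 with dexamethasone, against a non-toxic range of 63.5 to 73.5 TPM with a median of 68.5. On day 3 it was 42.7 TPM with dexamethasone, against 34.9 to 41.9 TPM with a median of 37.0. On days 4 and 6 dexamethasone, at 25.0 and 13.6 TPM, lay inside the non-toxic ranges of 22.5 to 29.9 and 13.12 to 16.96 TPM. So the early excess was small and absent on these days. On days 8 and 10 dexamethasone was above the range again, at 11.4 and 10.75 TPM, against 2.05 to 9.77 and 4.14 to 7.59 TPM.

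After day 15 the dexamethasone cultures turned upward in FKBP5 while the non-toxic ones went on falling. With dexamethasone the gene stood at 8.37 TPM on day 15, 15.2 TPM on day 21, 29.5 TPM on day 27 and 45.2 TPM on day 39. The non-toxic medians of those days were 6.91, 4.72, 4.66 and 3.62 TPM, and their highest libraries 7.14, 7.22, 6.32 and 5.04 TPM. The ranges did not touch on any of these 4 days. The ratio to the non-toxic mean was 1.25, 2.93, 6.22 and 12.8 on these days, and on day 39 dexamethasone had the highest FKBP5 of all 36 libraries.

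A fit with 1 term per day, added after the results were known called FKBP5 on 4 days. It rests on 1 dexamethasone library a day, so its standard errors come from the spread of the non-toxic libraries alone, the drug library is assumed to vary like them, and no replicate of the drug on that day stands behind a call. The differences were 0.68 ± 0.22 on day 10 (5.09% of genes called), 1.41 ± 0.22 on day 21 (22% called), 2.43 ± 0.22 on day 27 (5.1% called) and 3.38 ± 0.22 on day 39 (21.3% called). Over days 27 and 39 together, a span chosen after the values were seen, 21.7% of genes were called. There FKBP5 rose by 2.91 ± 0.22 and ranked 3 of the 16318 genes, counted from the largest rise. Over all days FKBP5 ranked 65 by difference and 206 by p. Over days 1 to 3, also a span chosen after the values were seen, 13.9% of genes were called. The FKBP5 difference was 0.26 ± 0.04 there (adjusted p = 1.8e-06). Over days 1 to 6, where 18.8% of genes were called, FKBP5 was not called. The test of days 8 to 39 against days 1 to 6 gave a difference between the drug effects of 1.36 ± 0.19 for FKBP5 (adjusted p = 2.36e-08). It was the only 1 of the 8 genes called there, where 5.55% of genes were.

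TSC22D3 was raised early and again late. With dexamethasone it stood at 47.3 TPM on day 1, against 20.7 to 27.9 TPM with a median of 25.6 in the non-toxic libraries, a ratio to their mean of 1.88. On day 2 it was 45.8 TPM with dexamethasone, against 26.5 to 35.7 TPM with a median of 30.1. From day 4 to day 15 dexamethasone lay within or just outside the non-toxic range, as on day 15, with 91.6 TPM against 79.4 to 98.7 TPM. On days 21 and 27 it was 109 and 111 TPM with dexamethasone, against 75.9 to 95.4 and 79.0 to 98.6 TPM. On day 39 it was 136 TPM with dexamethasone, the highest of the 36 libraries, against 79.0 to 91.4 TPM with a median of 83.2.

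The same fit per day, with 1 dexamethasone library behind each value, called TSC22D3 on days 1 and 2, at 0.89 ± 0.11 and 0.57 ± 0.11, where only 1.26% and 0.57% of genes were called, and on days 21, 27 and 39, at 0.33 ± 0.11, 0.33 ± 0.11 and 0.70 ± 0.11. Its effect over days 1 to 6, 0.41 ± 0.06 (18.8% of genes called), and over days 8 to 39, 0.30 ± 0.05 (9.73% called), differed by -0.11 ± 0.07, which was not called (adjusted p = 0.472).

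**Figure D2:**
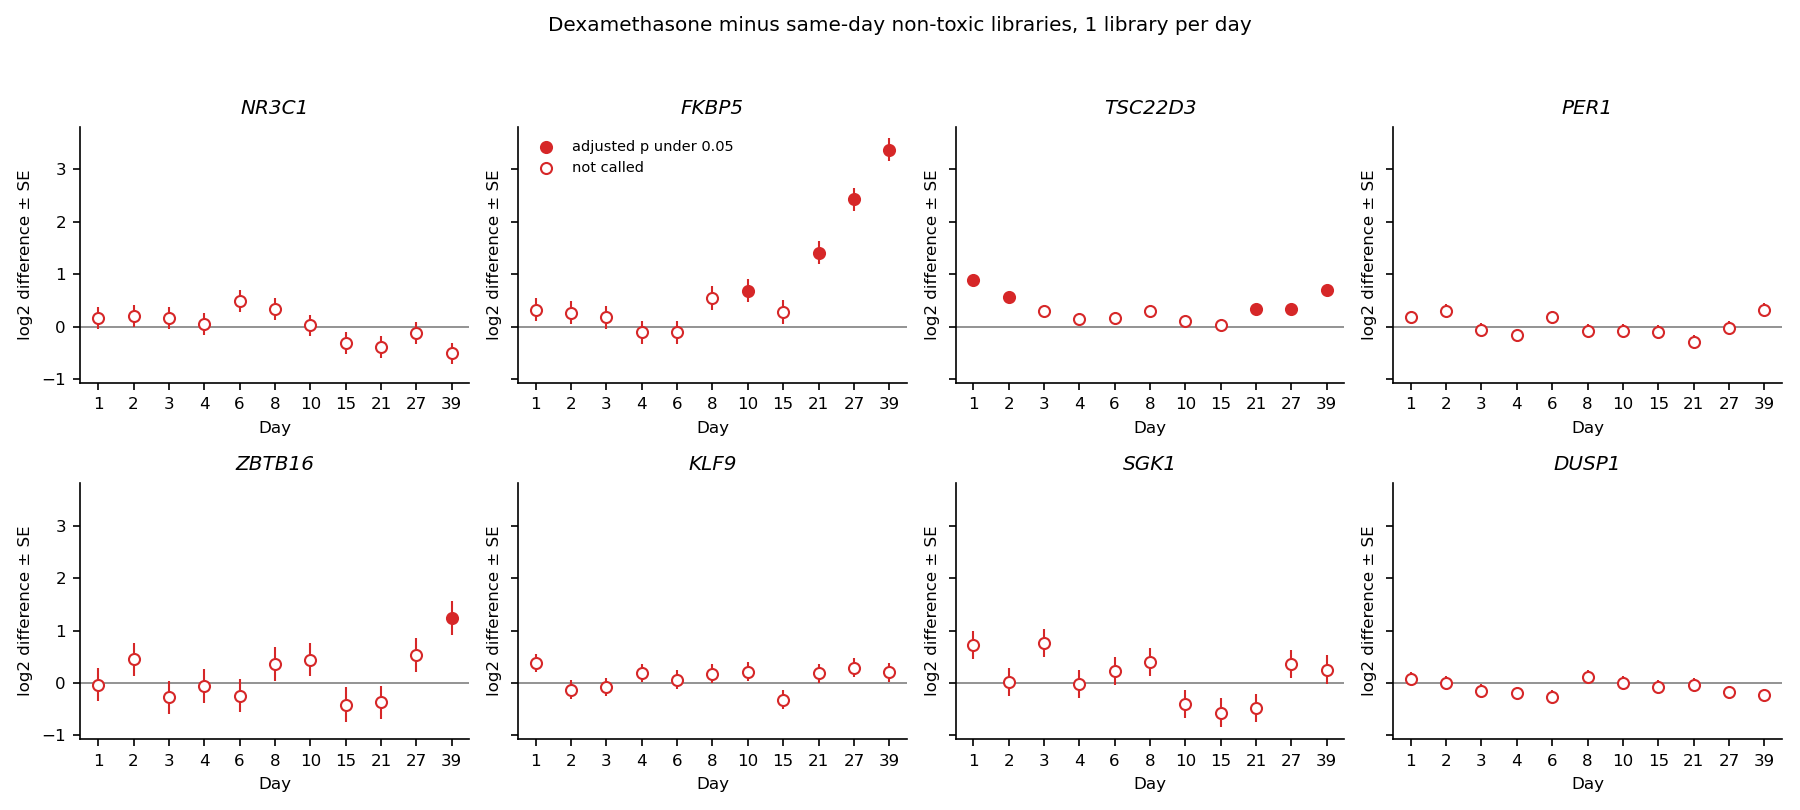
Log2 difference of TPM plus 1, dexamethasone minus the non-toxic libraries of the same day, with its standard error, for each gene and day. Each point is 1 dexamethasone library, the standard error comes from the non-toxic libraries, and filled points passed the adjusted p of 0.05. FKBP5 climbs to 3.38 on day 39, TSC22D3 is filled on days 1, 2, 21, 27 and 39, and ZBTB16 on day 39.

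ZBTB16 and the receptor gene had no call over all days. Both were called over days 27 and 39 together, where 21.7% of genes were. ZBTB16 had 6.60 TPM on day 27 and 11.1 TPM on day 39 with dexamethasone, against 2.64 to 5.76 and 2.74 to 5.34 TPM in the non-toxic libraries. On days 15 and 21 it was below every non-toxic library, at 2.56 and 2.65 TPM, and on days 2 and 10 above every one, at 11.55 and 6.26 TPM. At least as many days above the range were seen for 9.52% of genes, and at least as many below it for 60.4%. Its difference was 0.15 ± 0.11 over all days (adjusted p = 0.429) and 0.89 ± 0.18 over days 27 and 39 (adjusted p = 0.000658). On day 39 alone, from 1 dexamethasone library, it was 1.24 ± 0.32. With a term for transcript length it was called over all days, at 0.27 (adjusted p = 0.0041).

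NR3C1 was 4.19 TPM on day 21 and 11.3 TPM on day 39 with dexamethasone, against 4.65 to 7.66 and 13.7 to 19.7 TPM in the non-toxic libraries. Both dexamethasone libraries lay below the whole non-toxic range, while that of day 27, at 9.04 TPM, lay inside 8.29 to 12.3 TPM. On day 6 it was above the range, at 3.26 TPM against 1.38 to 3.07 TPM. At least as many days below the range were seen for 60.4% of genes, and at least as many above it for 72.3%. The difference was -0.31 ± 0.11 over days 27 and 39 (adjusted p = 0.0419) and 0.01 ± 0.07 over all days (adjusted p = 0.947), and NR3C1 was called on no single day, with -0.51 ± 0.21 on day 39 (adjusted p = 0.0634). Lowering of the receptor's own mRNA by its ligand is known from other cell types, and its part in these levels was not tested.

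The remaining 4 genes, which are glucocorticoid targets in other tissues, had no call over all days. SGK1 differed by 0.12 ± 0.10 (adjusted p = 0.471), KLF9 by 0.11 ± 0.06 (adjusted p = 0.241), PER1 by 0.02 ± 0.04 (adjusted p = 0.84) and DUSP1 by -0.09 ± 0.04 (adjusted p = 0.171). SGK1 had 2.78 TPM on day 1 and 2.23 TPM on day 3 with dexamethasone, against highest non-toxic libraries of 1.8 and 1.51 TPM. Its rise over days 1 to 6, where 18.8% of genes were called, was called at 0.34 ± 0.13 (adjusted p = 0.0482). Over days 1 to 3, a span chosen after the values were seen, the rise was 0.50 ± 0.15 (adjusted p = 0.0142, 13.9% of genes called). On days 15 and 21, at 3.25 and 6.80 TPM, SGK1 lay below every non-toxic library. It had 2 days above the range and 2 below, and at least as many were seen for 40.7% and 60.4% of genes. KLF9 had 3.70 TPM on day 27 with dexamethasone, against 2.19 to 3.35 TPM, and 4.35 TPM on day 39, inside 2.98 to 4.93 TPM. PER1 had 41.4 TPM on day 39 with dexamethasone, against 27.8 to 38.0 TPM, and 23.1 TPM on day 21, against 25.8 to 37.2 TPM. KLF9 was above the range on 3 days and below it on 1, as 19.6% and 78.9% of genes were on at least as many. PER1 was above it on 2 days and below it on 2, as 40.7% and 60.4% of genes were on at least as many. DUSP1 was just under the non-toxic range on days 4, 6, 27 and 39, as 21.6% of genes were on at least as many days. Without day 8 DUSP1 was called, at -0.11 (adjusted p = 0.0408). The dexamethasone library and the non-toxic libraries of day 8 left that fit together. The first libraries were taken after 1 day, so a response of the first hours would not be seen.

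The size of the FKBP5 rise rested on the last days, and without the day 39 library it was 0.59 (adjusted p = 1.08e-06). The call was lost against the DMSO libraries alone, at 0.92 ± 0.35 (adjusted p = 0.177), and TSC22D3 kept it at 0.37 ± 0.07 (adjusted p = 0.0204). Leaving out the day 8 ibuprofen library moved the count of called genes to 4359 and changed no call among the 8 genes.

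The labels name no batch, so the class and any batch cannot be told apart, and dexamethasone was also set against the other toxic compounds. There 0.0919% of genes were called, 15 in all with 92 at an unadjusted p under 0.05, and none of the 8 genes was among them. FKBP5 differed by 0.71 ± 0.48. The correlation within a compound was 0.521 in that fit. Without the 7 compounds that had 1 or 5 libraries, 123 genes were called and FKBP5 differed by 0.79 ± 0.24 (adjusted p = 0.125). Without hydroxyurea as well, which was left out after its own FKBP5 had been seen, 144 genes were called and FKBP5 differed by 0.87 ± 0.19 (adjusted p = 0.00206). These 2 sets were called at 0.754% and 0.882% of genes.

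Other genes of glucocorticoid biology moved in both directions. Of 31 further genes induced by glucocorticoids in other cells, 7 rose and 3 fell with dexamethasone over all days, beside 4.79% and 8.68% of all genes, and their median difference was 0.08 against -0.03 over all genes. ANGPTL4, a lipoprotein lipase inhibitor, rose by 1.02 ± 0.21. HIF3A rose by 0.94 ± 0.08 and the metallothionein MT2A by 0.90 ± 0.18, while PER2, a clock gene, fell by 0.45 ± 0.06, TXNIP by 0.44 ± 0.07 and IRS2 by 0.15 ± 0.05, the last pair named after their values were seen. On day 39 TAT, a liver enzyme that is a classical glucocorticoid target, had 4.65 TPM with dexamethasone, against 0 to 0.56 TPM in the non-toxic libraries. HIF3A had 34.7 TPM there, against 6.55 to 11.8 TPM, and BCL6, a transcriptional repressor, 28.2 TPM, against 6.88 to 10.0 TPM. Over days 27 and 39, 8 of the 31 rose and 6 fell, beside 12.1% and 9.65% of all genes. The day 39 levels above come from 1 dexamethasone library and are all of genes that were higher in it. No level is given of the 6 that fell, so these levels do not stand for the 31.

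Of 10 tested genes listed here as repressed by the receptor in other cells, none rose and 4 fell over all days, beside 782 and 1417 of all 16318 genes. They were CCL2, a chemokine, at -0.83 ± 0.15, the adhesion molecules VCAM1 at -0.76 ± 0.08 and ICAM1 at -0.48 ± 0.11, and TNFAIP3 at -0.44 ± 0.08. CCL2 had 9.20 TPM on day 39 with dexamethasone, against 18.04 to 62.46 TPM in the non-toxic libraries, and 17.4 TPM on day 27, against 32.1 to 85.8 TPM. The same 4 genes fell over days 27 and 39, where 1575 of all 16318 genes fell.

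Among 15 tested clock genes, PER1 not among them, 1 rose and 4 fell over all days, beside 782 and 1417 of all 16318 genes. The other lists of this paragraph stand beside the same counts. Over days 27 and 39, 8 clock genes fell and none rose, beside 1575 and 1974 of all 16318 genes. BHLHE41, a repressor of the clock, fell by 0.79 ± 0.09 and CRY1 by 0.70 ± 0.09 over those days. Of 12 immediate early genes, which share triggers with DUSP1, 1 rose and 2 fell over all days. Of 14 chaperones and coregulators of the receptor, 1 was called, HSP90AB1 at -0.05 ± 0.02. Of 5 tested genes of corticosteroid handling, none was called. Of 5 tested genes of the pregnane X receptor axis, a receptor that high steroid doses can engage, POR rose by 0.34 ± 0.03.

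Relatives of the 8 genes stand here beside 4.79% of all genes called higher and 8.68% called lower. Of 10 other SGK, TSC22, KLF and FKBP genes, 2 rose over all days, KLF10 by 0.41 ± 0.09 and KLF6 by 0.23 ± 0.06. The 10 include FKBP4, which is also counted among the chaperones. Of 10 MAP kinase phosphatases and feedback genes, 1 fell, SPRY4 by 0.21 ± 0.08.

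Markers of other cell types also moved in the late dexamethasone libraries. Their counts stand beside 1974 of all 16318 genes called higher and 1575 called lower over days 27 and 39. Of 8 astrocyte genes, 2 rose and 3 fell over days 27 and 39, and ALDH1L1, a folate enzyme, rose by 2.70 ± 0.17, with 70.6 TPM on day 39 against 5.59 to 11.45 TPM. The sum of the 8 was 2903 TPM on day 27 with dexamethasone, against 3130 to 3930 TPM, and 4539 TPM on day 39, against 3906 to 5625 TPM. Of 8 neural progenitor genes, 1 rose and 2 fell, and their sum on day 39 was 3958 TPM, against 5242 to 6132 TPM. Of 8 mesenchymal genes, none rose and 4 fell, with a sum of 3533 TPM on day 27, against 4839 to 9310 TPM, and 7773 TPM on day 39, inside 4722 to 9002 TPM. Of 8 neuron genes, 1 rose and 1 fell, with a sum of 4671 TPM on day 39, inside 4307 to 4954 TPM. Of 6 oligodendrocyte lineage genes, none rose and 3 fell, with a sum of 49.05 TPM on day 39, against 57.5 to 95.8 TPM. Of 5 endothelial genes none was called, and of 5 pluripotency genes 1 fell. What part these shifts had in the levels of FKBP5, TSC22D3, ZBTB16 and NR3C1 was not tested.

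FKBP5 rose with other toxic compounds too. Hydroxyurea, an inhibitor of ribonucleotide reductase given at 250 µM, raised it by 1.54 ± 0.10 (adjusted p = 9.67e-32), above every non-toxic library on 11 of 11 days. Its levels were 86.8, 80.4, 76.7, 70.5, 61.0, 52.7, 51.2, 28.3, 18.2, 14.3 and 7.83 TPM from day 1 to day 39, with a ratio to the non-toxic mean of 8.02 on day 10. FKBP5 was thus lower on each later day there, whereas it climbed after day 15 with dexamethasone. Hydroxyurea ranked first of all libraries on days 8, 10, 15 and 21, and dexamethasone on days 27 and 39. TSC22D3 was not called under hydroxyurea, at 30.8 TPM on day 1 and 104 TPM on day 39. PER1 under hydroxyurea was higher over days 1 to 6, by 0.23 (adjusted p = 6.85e-05), and lower over days 8 to 39, at -0.22 (adjusted p = 0.00502). The sum of the 8 mesenchymal genes under hydroxyurea was 11740 TPM on day 27, above 4839 to 9310 TPM, and its part was not tested.

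**Figure D3:**
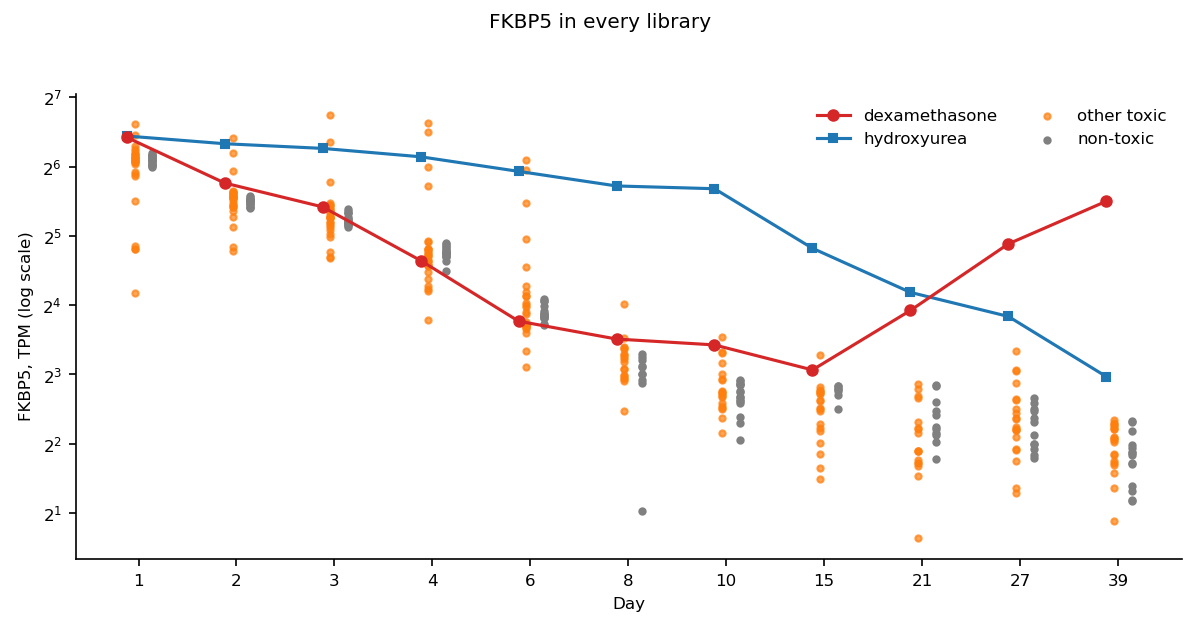
FKBP5 in all 414 libraries by day, on a log axis. Red is dexamethasone, blue hydroxyurea, orange the other toxic and grey the non-toxic libraries. Hydroxyurea stays high and declines, while dexamethasone turns upward after day 15 and stands at 45.2 TPM on day 39, above every other library.

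Okadaic acid, a phosphatase inhibitor at 3 nM, raised FKBP5 by 1.32 ± 0.08, with 87.5, 85.4, 107, 90.8 and 68.1 TPM on days 1, 2, 3, 4 and 6. Cytosine Beta-D-arabinofuranoside, which blocks DNA synthesis, at 5 µM raised it by 1.10 ± 0.07, with 61.7 to 98.0 TPM. Every library of both lay above every non-toxic library of its day. Cadmium at 50 µM and arsenic at 5 µM gave falls of 0.40 ± 0.08 and 0.39 ± 0.07, and U0126, a MEK inhibitor, at 10 µM a fall of 0.35 ± 0.08. The median of all genes tested moved by -0.40 under cadmium and -0.11 under arsenic, and that of the genes averaging 10 TPM or more, the set used for centring, by -0.67 and -0.36. After centring FKBP5 stood at 0.27 under cadmium (adjusted p = 0.000214) and at -0.07 under arsenic (adjusted p = 0.331).

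SGK1 and DUSP1 answered to other compounds. Cadmium raised SGK1 to 47.0, 281, 533, 377 and 58.4 TPM on days 1, 2, 3, 4 and 6, against highest non-toxic libraries of 1.8, 2.54, 1.51, 1.4 and 1.84 TPM. That was a rise of 6.36 ± 0.21. Arsenic gave 57.3 to 134 TPM, a rise of 5.58 ± 0.13. Okadaic acid gave 6.40, 22.3, 110, 260 and 268 TPM, a rise of 4.98 ± 0.28 that built up over the days. Every library of these compounds lay above every non-toxic library of its day. SGK1 fell under U0126, by 0.33 ± 0.10, and thalidomide, by 0.30 ± 0.09.

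DUSP1 moved with SGK1 in the same 3 compounds. Okadaic acid gave 57.0, 88.0, 343, 553 and 619 TPM, against non-toxic medians of 20.0, 23.9, 28.5, 31.4 and 37.4 TPM, a rise of 2.98 ± 0.14. Arsenic gave 216 TPM on day 1 and 52.2 TPM on day 6, a rise of 1.97 ± 0.12, and cadmium 46.0 to 187 TPM, a rise of 1.88 ± 0.10. All of these lay above the non-toxic range. The largest falls of DUSP1 were under vincristine, at -0.45 ± 0.10, K252a, a kinase inhibitor, at -0.41 ± 0.05, and Lead acetate, at -0.32 ± 0.05. The vincristine fall was lost without its day 4 library, at -0.12 (adjusted p = 0.217). All 12 immediate early genes rose under arsenic, cadmium and okadaic acid, beside 34.8%, 24.6% and 35.1% of all genes.

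**Figure D4:**
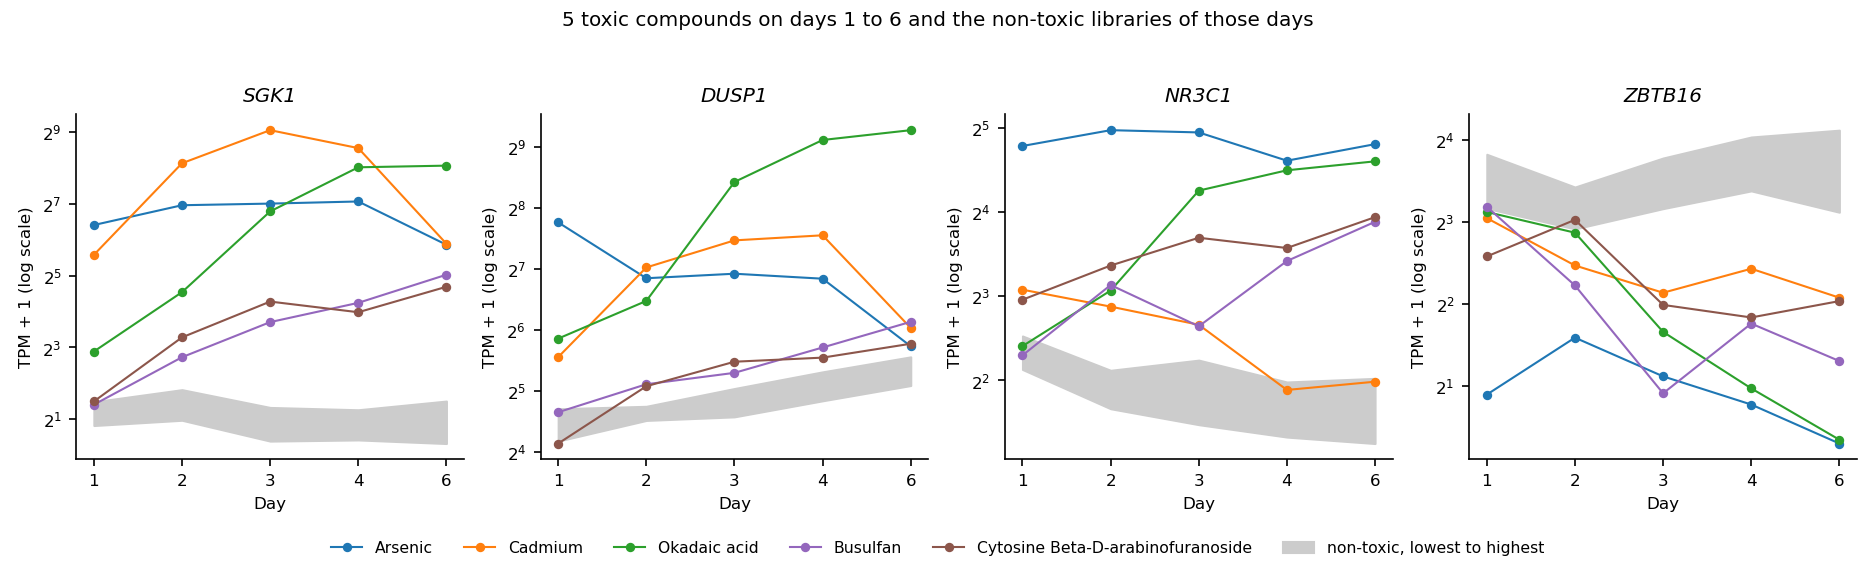
TPM plus 1, on a log axis, of SGK1, DUSP1, NR3C1 and ZBTB16 on days 1 to 6 in 5 compounds sampled on those days alone (arsenic, cadmium, okadaic acid, busulfan and Cytosine Beta-D-arabinofuranoside), with the range of the non-toxic libraries in grey. SGK1 reaches 533 TPM under cadmium on day 3, DUSP1 619 TPM under okadaic acid on day 6, and ZBTB16 lies below the band in nearly all of these libraries.

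The receptor gene itself rose most under arsenic, by 2.98 ± 0.09, with 26.6, 30.4, 29.9, 23.5 and 27.0 TPM on days 1, 2, 3, 4 and 6, against a highest non-toxic library of 4.77 TPM over those days. Okadaic acid raised it by 1.92 ± 0.15 and Cytosine Beta-D-arabinofuranoside by 1.66 ± 0.10. U0126 gave a fall of 0.55 ± 0.08, with 5.67 TPM on day 39, against 13.7 to 19.7 TPM, and Bis-I one of 0.21 ± 0.07. In vincristine 1 library of 5 carried the rise of 1.40 ± 0.22, with 87.3 TPM on day 4 and 3.20 to 8.89 TPM on the other days, and the rise was 0.56 (adjusted p = 0.000264) without that library. The SGK1 and KLF9 calls under vincristine were lost without it, at 0.30 and 0.05. Under arsenic the sum of the 8 mesenchymal genes was 20620 TPM on day 6, against 589 to 751 TPM, and the part of that shift in NR3C1 was not tested.

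The receptor gene, KLF9, ZBTB16, TSC22D3 and SGK1 all rose under both retinoids. Accutane or Isotretinoin at 0.5 µg/ml and (trans) Retinoic acid at 1.7 µM, vitamin A acids that act through retinoic acid receptors, raised NR3C1 by 1.55 ± 0.11 and 1.34 ± 0.10. On day 3 NR3C1 had 17.1 TPM under Isotretinoin and 13.6 TPM under Retinoic acid, against 1.78 to 3.73 TPM. KLF9 rose by 1.01 ± 0.08 and 1.24 ± 0.09, and on day 39 stood at 10.85 and 13.1 TPM, against 2.98 to 4.93 TPM. ZBTB16 rose by 0.86 ± 0.11 and 0.71 ± 0.11, the only compounds tested in which it was called higher over all their days. TSC22D3 rose by 0.46 ± 0.04 and 0.54 ± 0.04, and SGK1 by 0.39 ± 0.10 and 0.65 ± 0.10, while FKBP5 was not called under either. The doses are in different units, so the 2 are given side by side only.

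ZBTB16 otherwise fell, in 14 of the 27 other toxic compounds that could be tested. The largest fall was under arsenic, at -2.59 ± 0.11, with 0.86, 2.01, 1.17, 0.71 and 0.23 TPM on days 1 to 6, against a lowest non-toxic library of 6.55 TPM over those days. Okadaic acid followed at -1.73 ± 0.17, with 0.27 TPM on day 6, and busulfan, an alkylating agent, at -1.64 ± 0.13. Of 8 neural progenitor genes, 7 fell under arsenic, 8 under cadmium and 7 under okadaic acid, beside 46.7%, 59.4% and 39.8% of all genes, and their part was not tested.

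TSC22D3 rose in 11 and fell in 2 of the 27. Arsenic gave 213 TPM on day 1, against 20.7 to 27.9 TPM, but 42.4 TPM on day 6, inside 41.3 to 50.3 TPM, and a rise of 1.37 ± 0.13. Cadmium gave 61.2 to 65.9 TPM, a rise of 0.87 ± 0.06, and K252a 69.7 TPM on day 1, a rise of 0.58 ± 0.05. Vincristine gave a fall of 0.38 ± 0.07 and okadaic acid one of 0.15 ± 0.05, which was lost without its day 1 or its day 6 library.

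KLF9 rose in 7 and fell in 4, with falls of 0.40 ± 0.07 under U0126, 0.34 ± 0.07 under Bis-I and 0.24 ± 0.06 under PD166866, an inhibitor of FGF receptors. Its largest rise outside the retinoids was 1.07 ± 0.09 under arsenic. PER1 rose in 3 and fell in 9, by 0.41 ± 0.06 under okadaic acid, 0.26 ± 0.06 under Cytosine Beta-D-arabinofuranoside and 0.15 ± 0.05 under busulfan, the last lost without its day 2 library, at 0.10. Its falls were 0.84 ± 0.06 under cadmium, 0.40 ± 0.05 under Lead acetate and 0.31 ± 0.05 under Isotretinoin. Under arsenic PER1 turned with the scaling, at -0.15 ± 0.05 as fitted and 0.17 after centring, and the call was lost without its day 6 library, at -0.07.

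Counts of the 8 genes stand here beside the share of all genes that each compound moved. All 8 genes were called under arsenic, cadmium, okadaic acid and Cytosine Beta-D-arabinofuranoside, where 81.6%, 84%, 74.9% and 68.2% of genes were. Busulfan and vincristine called 7 each, beside 64.6% and 71% of genes, and U0126 and Lead acetate 7 each, beside 21.8% and 42.1%. Retinoic acid, Isotretinoin and 5-Fluorouracil called 6 each, beside 47.7%, 41.2% and 58.7%. Hydroxyurea, K252a and PD166866 called 5 each, beside 52.2%, 35.4% and 24.1%. Amiodarone and Bis-I called 3 each, beside 22.7% and 42.5%, thalidomide 2 beside 9.17% and Monosodium glutamate 1 beside 8.38%. The other 9 toxic compounds called none. In all these were 102 calls. NR3C1 rose in 12 and fell in 2 of the 27 compounds, FKBP5 rose in 7 and fell in 5, SGK1 rose in 10 and fell in 2, and DUSP1 rose in 7 and fell in 5.

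**Figure D5:**
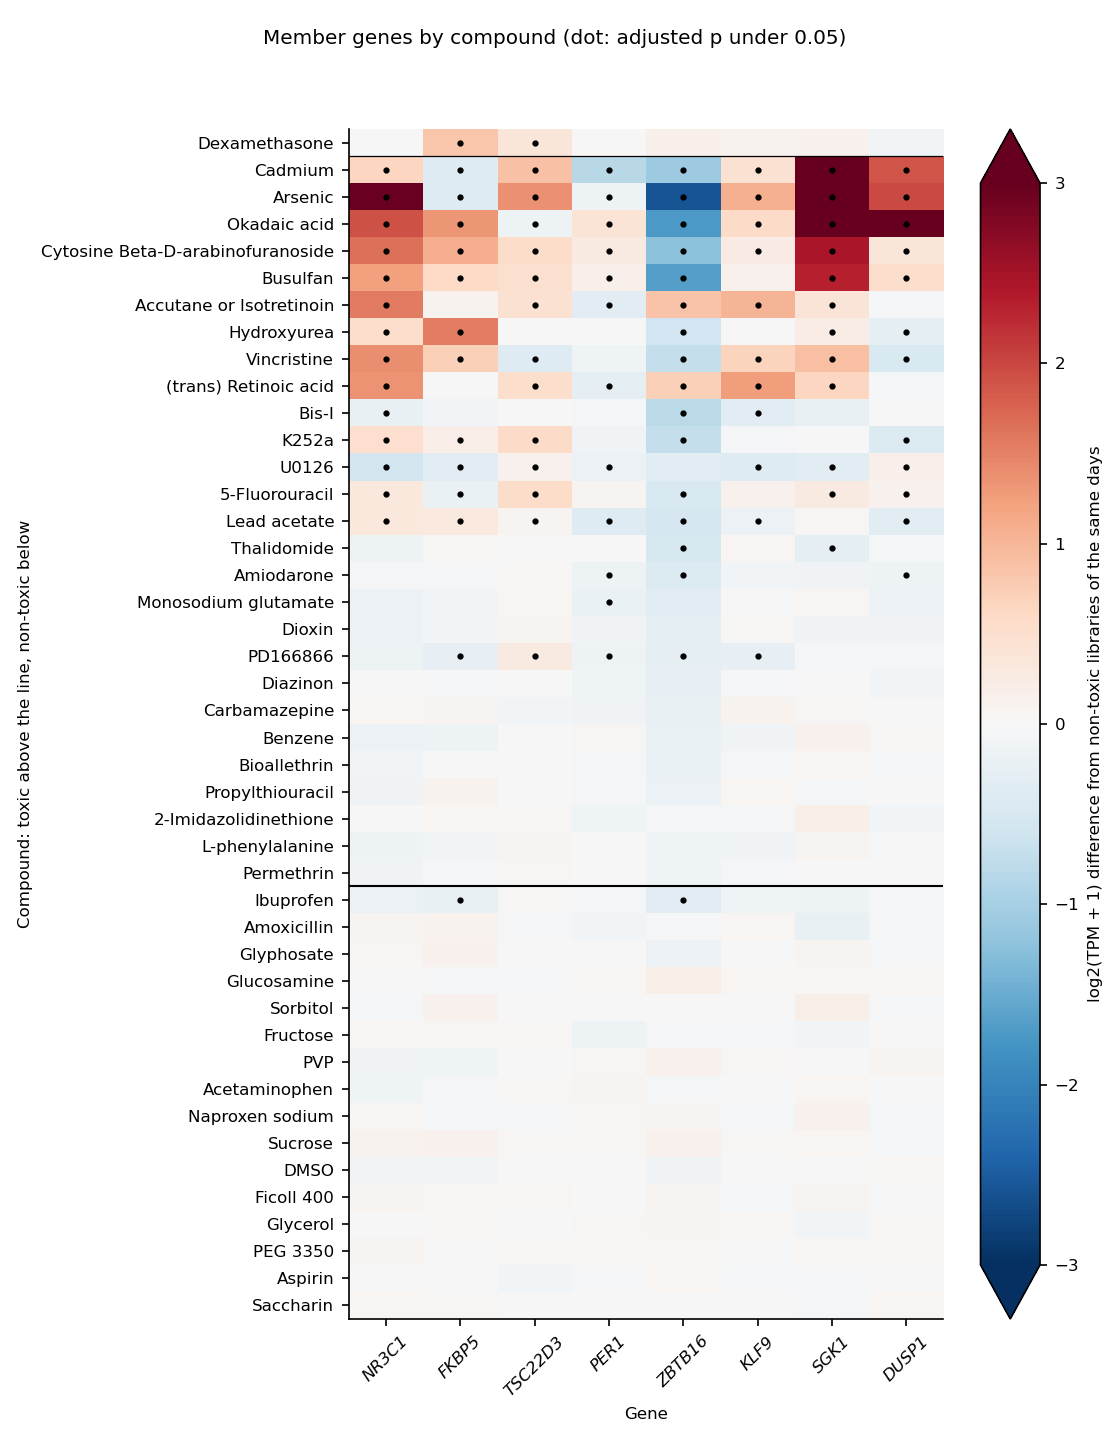
Log2 difference of the 8 genes (columns) under each compound (rows) from the non-toxic libraries of the same days, with dexamethasone at the top, the other toxic compounds under it and, below the lower line, the non-toxic ones, each set against the others. Dots mark an adjusted p under 0.05, and colours stop at 3 and -3, beyond which SGK1 reached 6.36. Dexamethasone carries dots for FKBP5 and TSC22D3, and ibuprofen is the only non-toxic compound with any.

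Among the 16 non-toxic compounds, each set against the others, 2 calls were made, both under ibuprofen, where 31.6% of genes were called. FKBP5 fell by 0.23 ± 0.08 and ZBTB16 by 0.31 ± 0.11, and both calls were lost after centring, at -0.12 (adjusted p = 0.168) and -0.20 (adjusted p = 0.0975). In its day 8 library FKBP5 was 2.05 TPM and ZBTB16 was listed at 0. Maneb, with 1 library on day 1, had 27.9 TPM of FKBP5, 1.13 TPM of NR3C1, 20.3 TPM of TSC22D3, 5.09 TPM of PER1, 0.86 TPM of ZBTB16, 0.09 TPM of KLF9, 1.81 TPM of SGK1 and 6.70 TPM of DUSP1. Monosodium glutamate, labelled toxic, was low on day 1 too, with 18 TPM of FKBP5, 0.43 TPM of NR3C1 and 3.06 TPM of DUSP1. Its PER1 call, -0.21 ± 0.06, was lost without that library, at -0.06 (adjusted p = 0.909).

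The genes whose deviations from the same-day non-toxic mean ran most like each of the 8, by Pearson r over the 414 libraries, held 1 other member, SGK1 for DUSP1. The libraries of a compound share that compound and those of a day share its reference, so r describes these libraries only. For FKBP5 they were MYLK at 0.70, MAN1C1, WEE1, DNMBP and TRIP13. For TSC22D3 they were BEX2 at 0.695, CHGA, GABARAPL1, GOT1 and TSPYL2, and for NR3C1 TIMP3 at 0.81, TAP2, DAB2, OSMR and MAN1A1. For ZBTB16 they were KAT6B at 0.85, C1orf21, ST18, MAGI3 and ASTN1, and for KLF9 PRKCB at 0.70, CFI, TSHZ3, HOXB9 and HOXB7. For PER1 they were ST3GAL2 at 0.68, CUL7, SBF1, CLIP2 and BCL9L.

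For SGK1 they were MAFF at 0.89, ARC, ADM, BAG3 and OAT, and for DUSP1 HBEGF at 0.825, ERRFI1, MAP1LC3B, SGK1 and PNP. Those 2 rested on the compounds sampled on the first days. Over the 378 libraries of compounds with more than 5 libraries, MAFF gave 0.38 with SGK1, HBEGF 0.12 with DUSP1, and SGK1 with DUSP1 went to 0.09 in place of 0.76. FKBP5 and TSC22D3, raised together by dexamethasone, ran at -0.19 over all libraries and -0.11 over the 378.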

How the data were processed

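The deposited values are gene-level TPM computed by the authors from TruSeq RNA libraries. The submitters' processing notes name CASAVA 1.8.2, Bowtie 0.12.8, RSEM 1.2.1 and build hg19. Read counts were not analysed here, so depth is unknown and no counting interval is given.

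Group, day and dose came from the labels. The 16318 genes that reached 1 TPM in 5 or more libraries were tested. Differences were taken on log2(TPM + 1), a scale that understates changes of low genes. They were estimated in limma 3.58.1 (R 4.3.3) with an intensity trend and a term for each day. The fits of compounds added a random effect for compound, and the steps over days in the non-toxic libraries had none. The correlation within a compound was 0.0212 in the non-toxic and 0.521 in the toxic libraries. Fits against the non-toxic libraries used the lower value, which treats a compound's libraries as nearly independent. Their p-values therefore do not allow for a higher correlation within a toxic compound. Calls are at a Benjamini-Hochberg adjusted p under 0.05 over all genes tested. Compounds with fewer than 5 libraries were not tested. The code was tested on simulated data.

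The 8 genes and the gene lists were chosen with earlier results of these data known, so no list has a test of its own. The rule for names covers the 8 genes, up to 4 called genes per list and comparison, cell type markers, the 3 largest called rises and falls of each gene over compounds, and for likeness the 5 most correlated genes whose mean was 5 TPM or more. One gene that the rule names is not reported here. Names outside it, such as the retinoids and vincristine for NR3C1, were singled out after their values were seen. So were the fits per day, over days 1 to 3 and over days 27 and 39, and the smaller toxic sets. Replicate numbers only name a compound's libraries and pair nothing. Alternatives changed the pseudocount (0.1), the filter, the centring, the block, the days and the libraries. Where a library of the compound under test was left out, the reference libraries of its day left the fit too.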

Additional observations from a re-analysis of the deposited data

Results flagged for a closer look

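Of 82 groups of 4 to 10 libraries, 11 had a highest or lowest library far from the rest, where chance gives about 1 in 20. In the non-toxic libraries of day 8 the ibuprofen library was the lowest, with 0.26 TPM of NR3C1, 2.05 TPM of FKBP5, 28.99 TPM of DUSP1 and ZBTB16 listed at 0.0 (n = 10 libraries). The same library was the lowest of ibuprofen's own 10 by its log2 difference from the same-day non-toxic mean, at -1.475 for FKBP5 and -2.559 for ZBTB16.

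On the same scale, TSC22D3 under 5-Fluorouracil was lowest on day 1, at 0.187. Under Cytosine Beta-D-arabinofuranoside PER1 was highest on day 2, at 0.826, and DUSP1 lowest on day 1, at -0.275. Under vincristine ZBTB16 was lowest on day 6, at -2.034, and KLF9 highest on day 4, at 3.111.

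The dexamethasone effect on FKBP5 differed between days 8 to 39 and days 1 to 6 by 1.36 ± 0.19 on the log2 scale (limma, adjusted p = 2.36e-08).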

How the results depend on the processing

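FKBP5 and TSC22D3 kept their calls with dexamethasone when the pseudocount, filter, centring or compound block was changed. They also kept them without each dexamethasone library in turn, left out together with the non-toxic libraries of its day. FKBP5 lost its call over days 1 to 6 (0.11, adjusted p = 0.0669) and against DMSO alone. The 2199 genes called became 2908 without the replicate block for compound, 4359 without the day 8 ibuprofen library, 1402 without days 15 and 21, 488 against DMSO alone, 3760 with a length term, 3549 over days 27 and 39, and 1577 to 4637 leaving out 1 library (days 21 and 8). Of those called, 782 of 2199 were higher, against 2035 of 3760 with the length term, 1102 of 2644 after centring and 699 of 1402 without days 15 and 21. For later minus earlier days, 906 became 488 without days 15 and 21. Against the other toxic compounds, 15 became 23 after centring, 181 without the block, 123 without compounds of 1 or 5 libraries and 144 without hydroxyurea as well. The DMSO fit pairs libraries by day, and replicate numbers pair nothing.

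Signs turned as follows, and the cause was not tested. With dexamethasone, NR3C1 was -0.161 over days 8 to 39, -0.314 over days 27 and 39, and -0.036 to 0.065 leaving out 1 library. PER1 was -0.038 over days 8 to 39 and -0.011 to 0.051 leaving out 1. ZBTB16 was -0.032 over days 1 to 6, SGK1 -0.071 over days 8 to 39, and KLF9 -0.015 for later minus earlier days at the lower pseudocount. Against the other toxic compounds KLF9 was 0.014 without the block, 0 without days 15 and 21, 0.061 without compounds of 1 or 5 libraries and 0.058 without hydroxyurea too, and SGK1 0.078 and 0.088 in the last pair. Leaving out 1 library, NR3C1 under aspirin was -0.036 to 0.036, KLF9 -0.094 to 0.004, DUSP1 -0.045 to 0.02, and PER1 under vincristine -0.254 to 0.08. Hydroxyurea over days 1 to 6 gave 0.022 for TSC22D3 and 0.225 for both PER1 and KLF9. Monosodium glutamate without day 1 gave 0.092 for FKBP5, -0.008 for KLF9 and 0.04 for DUSP1. After centring, day 21 minus day 10 was -0.036 for TSC22D3 and -0.025 for PER1, and day 39 minus day 21 was 0.077 for TSC22D3 and 0.055 for DUSP1.

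Over the other toxic compounds, 96 of 102 calls were kept at the lower pseudocount and 90 after centring, where 2 turned.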
